A study of Mus musculus with 12 samples.

Results

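The genes described here encode the enzymes of glycolysis, of the pentose phosphate pathway and of pyruvate entry into mitochondria, together with the regulator Hif1a and the shuttle enzyme Gpd2. They were selected as the rows of the table of read counts that carry 1 of 35 gene names. The names matched 36 of its 55335 rows, because Aldoa names 2 rows. All 36 rows passed edgeR's filter on low counts, which left 15702 genes for testing.

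RNA-seq was done on splenic CD8 T cells of OT-I mice, which have a C57BL/6 background. OT-I mice carry a transgenic T cell receptor for a peptide of ovalbumin, so nearly all their CD8 T cells recognise the same antigen. Cells in all groups had been given a retroviral vector, either one carrying Batf3 or an empty control vector, and were sorted for successful transduction. Each was then cultured for 6 h, either stimulated with plate-bound antibody to CD3e at 1 µg/ml and antibody to CD28 at 1 µg/ml, or non-stimulated with IL-15 at 100 ng/ml. Batf3 is a transcription factor of the AP-1 family, and the series is concerned with CD8 T cell memory. The 4 groups were Batf3 stimulated, control stimulated, Batf3 non-stimulated and control non-stimulated cells, with 3 libraries each. The labels name IL-15 for the non-stimulated cultures and not for the stimulated ones, so the effects of the antibodies and of IL-15 cannot be told apart. The labels call the replicates technical, so every SD, SE and p-value below measures the spread between such libraries and not between mice or transductions.

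Glycolysis splits glucose into pyruvate in the cytosol and yields ATP without oxygen. Pyruvate is either reduced to lactate by lactate dehydrogenase or carried into mitochondria and oxidised by the pyruvate dehydrogenase complex, which pyruvate dehydrogenase kinases switch off. The pentose phosphate pathway branches off at glucose phosphate: its oxidative arm makes NADPH, and its non-oxidative arm interconverts sugars and supplies ribose for nucleotides. Activated T cells are known for a rapid rise in glucose uptake and lactate release, while resting and memory cells rely more on mitochondrial oxidation. The transcription factors MYC and HIF-1 are known regulators of many of these genes.

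Total read counts lay between 14211564 and 14468231 per library. Batf3 itself was measured at 435, 414 and 434 CPM (the gene's count relative to a library size scaled with TMM factors) in Batf3 stimulated cells, against 18.3, 19.1 and 17.7 CPM in control stimulated cells. It was measured at 475, 468 and 469 CPM in Batf3 non-stimulated cells, against 7.44, 5.84 and 7.02 CPM in control non-stimulated cells. The vector labels and the Batf3 counts therefore matched in every library, although counts from the vector transcript and from the gene cannot be separated. All 10 CD8 T cell markers reached 1 CPM in each group. For markers, CPM are per library total without TMM factors. Cd4 reached at most 0.632 CPM, but the 4 CD4 T cell markers summed to 65.5 to 69.3 CPM in Batf3 stimulated cells, against 23.0 to 25.95 CPM in control stimulated cells. They summed to 37.9 to 40.4 CPM in Batf3 non-stimulated cells, against 14.1 to 17.5 CPM in control non-stimulated cells, with Cd40lg, Zbtb7b and Foxp3 reaching 54, 26.1 and 13.4 CPM. The 6 dendritic cell markers summed to 56.6 to 60.8 CPM in Batf3 stimulated cells, against 32.8 to 37.7 CPM in control stimulated cells, and to 35.15 to 37.4 CPM in Batf3 non-stimulated cells, against 25.7 to 27.2 CPM in control non-stimulated cells. Itgax, Zbtb46 and Xcr1 were detected in every library and Siglech in none. The 5 NK cell markers summed to 354 to 866 CPM over all libraries, nearly all of it Nkg7, and the 7 macrophage and monocyte markers to 147 to 1077 CPM, mostly Ly6c2. Activated CD8 T cells also express Nkg7 and Ly6c2, while Ncr1, Klra8 and Lyz2 were at 0 in all libraries. The B cell, neutrophil and erythroid lists summed to at most 7.30, 5.62 and 4.29 CPM, with Ms4a1, S100a8, Elane and Hbb-bs at 0. The part of these markers in the results was not tested. Replicate 3 of Batf3 stimulated cells stood slightly apart from the other replicates of its group, with a chi-square per gene of 3.17 and 2.62 against them. Other replicate pairs gave between 1.47 and 2.16. These are bulk values, so fewer cells expressing a gene and less of its RNA per cell cannot be told apart.

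Promoter windows from RefSeq (GRCm38.p6, 250 bases before to 50 bases after a transcript start) were found for all 35 members, in 51 windows. They were searched on both strands for ACGTG, the common core of the hypoxia response element that HIF-1 binds. ACGTG also lies inside the E-box CACGTG that MYC and MAX bind, so the motifs overlap. ACGTG was present in 20 of the 51 member windows, a share of 39.2%, against 19.6% of all 32851 windows. The background includes windows of genes not tested here and was not matched for expression or base composition. These shares therefore do not show an excess particular to the pathway. CACGTG was present in 9.8% of member windows and in 7.15% of all windows. TGANTCA, the AP-1 element, was present in 1.96% of member windows, a single window of Aldoa, and in 7.81% of all windows. By gene, windows with ACGTG belonged to 17 of the 35 members, against 21.8% of 27025 genes. They belonged to 10 of the 17 members that were called higher in the vector by stimulation interaction described below and to 7 of the other 18. This split was not tested. The windows below are those of the hexokinases, whose transcripts moved in opposite directions with stimulation, and of Ldha, which held 2 CACGTG copies. Capitals mark a match to ACGTG on either strand, together with the whole E-box where a match lies in one. On the opposite strand the match reads CACGT.
Hk2 (minus strand, chr6:82774405-82774704): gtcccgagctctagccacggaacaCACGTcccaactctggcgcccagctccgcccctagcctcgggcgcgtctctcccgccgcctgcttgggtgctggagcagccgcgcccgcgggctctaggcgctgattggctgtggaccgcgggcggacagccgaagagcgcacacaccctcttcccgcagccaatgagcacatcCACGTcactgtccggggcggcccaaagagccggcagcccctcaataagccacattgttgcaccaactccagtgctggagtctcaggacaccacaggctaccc
Hk1 (minus strand, chr10:62340372-62340671): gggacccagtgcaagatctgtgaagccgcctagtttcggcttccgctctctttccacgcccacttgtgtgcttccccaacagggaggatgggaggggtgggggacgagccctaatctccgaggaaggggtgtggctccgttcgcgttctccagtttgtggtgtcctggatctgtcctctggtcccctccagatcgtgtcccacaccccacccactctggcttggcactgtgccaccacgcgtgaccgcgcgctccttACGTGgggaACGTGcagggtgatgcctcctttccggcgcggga
Ldha (plus strand, chr7:46845554-46845853): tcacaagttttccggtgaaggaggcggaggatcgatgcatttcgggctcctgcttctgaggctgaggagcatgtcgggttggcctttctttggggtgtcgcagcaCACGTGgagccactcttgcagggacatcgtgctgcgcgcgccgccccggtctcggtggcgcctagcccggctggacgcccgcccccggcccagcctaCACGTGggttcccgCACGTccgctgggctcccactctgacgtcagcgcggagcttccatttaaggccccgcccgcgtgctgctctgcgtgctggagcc
The Hk2 window held 2 matches, both before the start site, and the Hk1 window held 2 matches after it. Hk1 and Ldha each have another window without a match. A match is a string of letters and not a measured binding site.

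Stimulation changed most of these genes in both vectors, in both directions. In Batf3 cells, 19 of the 36 rows rose and 12 fell in stimulated against non-stimulated libraries, while 41.2% of all tested genes rose and 41.4% fell. In control cells, 14 rows rose and 15 fell, against a background of 39.6% and 40.7%. The members' shares in control cells, 38.9% and 41.7%, were thus near those of all genes. The median log2 change of the members was 0.21 in Batf3 cells and -0.04 in control cells, beside medians over all genes of 0.01 and -0.01. Scaling by library sizes alone moved the median of all genes to -0.20 in Batf3 cells and -0.19 in control cells, and that of the members to 0.00 and -0.22, so the directions of small changes with stimulation are relative to the TMM scaling. Called changes of at least 2-fold numbered 7 up and 5 down in Batf3 cells, against a background of 18.8% and 24.4%, and 3 up and 6 down in control cells, against 17% and 24.1%. No library is shared between these contrasts, in which 14 rows rose in both vectors, 12 fell in both and 1, Tpi1, was called in opposite directions. Of the member rows these are 38.9%, 33.3% and 2.78%, and of all tested genes 36.6%, 37.4% and 0.688% did so, so the shares that moved alike in both vectors were near the background.

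The Batf3 vector went with lower levels of most members in non-stimulated cells and with a mixed and smaller pattern in stimulated cells. In non-stimulated cells, 26 rows fell and 2 rose, against a background of 23% and 16.3%, and the median log2 change was -0.25 beside -0.02 over all genes. In stimulated cells, 11 rows fell and 4 rose, against 14.6% and 14.8% of all genes, with a median of -0.07 beside 0.00. No member changed 2-fold or more with the vector in either culture, while 2.26% of all genes rose and 0.866% fell that far in non-stimulated cells and 2.45% and 0.834% did in stimulated cells. The members were expressed at a median of 75.2 CPM over the 12 libraries and all tested genes at 18.0 CPM, and this difference in level was not matched in the background. Gpi1, Pfkl, Pfkfb3, Pdk3 and Pdha1 were among the genes that fell with Batf3 in non-stimulated cells, by 0.16, 0.29, 0.24, 0.31 and 0.16 on the log2 scale, and the Pdha1 call was lost with library sizes alone. Summed over all members, their share of counts was 0.614% ± 0.0067 in Batf3 non-stimulated cells and 0.695% ± 0.0049 in control non-stimulated cells (SD, n = 3 each). It was 0.702% ± 0.014 in Batf3 stimulated cells and 0.685% ± 0.0057 in control stimulated cells, where the groups nearly touched, with Batf3 libraries at 0.691, 0.696 and 0.718% and control libraries at 0.680, 0.684 and 0.691%.

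**Figure D1:**
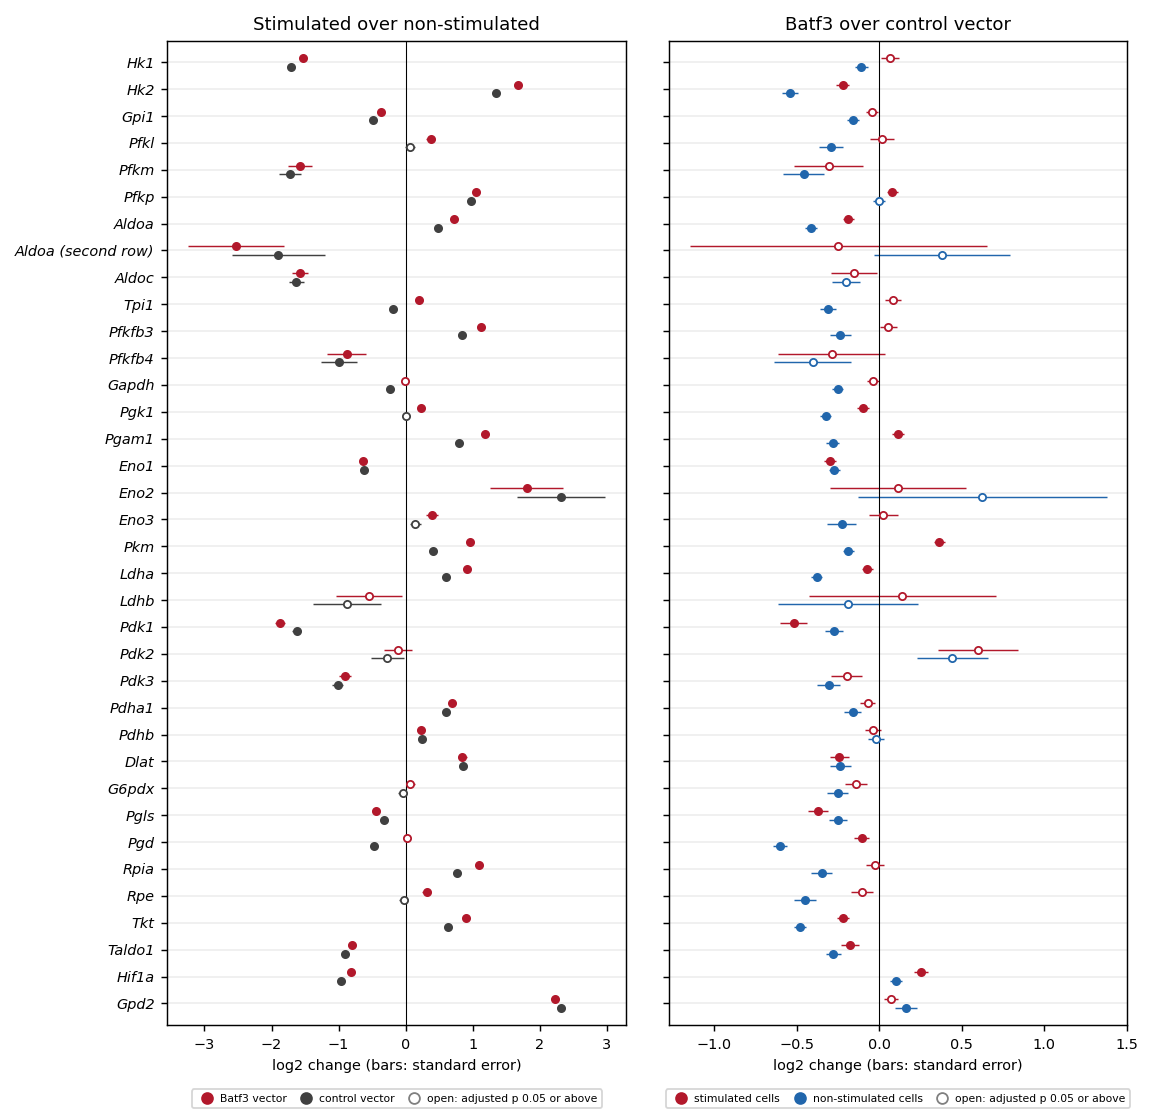
Log2 changes (x axes) of the 36 member rows (y axis) for stimulated over non-stimulated cells in each vector (left) and for Batf3 over control vector in each culture (right); points are edgeR estimates, bars are ± SE with n = 3 libraries per group, and open points were not called at an adjusted p under 0.05. On the left Gpd2, Hk2 and the low-count Eno2 lie far right of 0. Hk1, Pfkm, Aldoc, Pdk1 and the low-count other Aldoa row lie far left. On the right most non-stimulated points lie left of 0, with 26 rows called lower.

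The hexokinases, which trap glucose in the cell by phosphorylating it, exchanged places with stimulation. Hk2, the inducible isozyme (ENSMUSG00000000628, chromosome 6, 82725025 to 82774454, GRCm38), was measured at 178, 182 and 184 CPM in Batf3 stimulated cells, against 57.0, 56.2 and 57.9 CPM in Batf3 non-stimulated cells. It was measured at 206, 211 and 218 CPM in control stimulated cells, against 83.3, 84.7 and 80.8 CPM in control non-stimulated cells. All stimulated libraries lay above all non-stimulated ones, and in each culture the Batf3 libraries lay below the control libraries. The log2 change with stimulation was 1.67 ± 0.047 (SE) in Batf3 cells (edgeR adjusted p = 1.07e-44) and 1.35 ± 0.044 in control cells (edgeR adjusted p = 6.16e-41). With the Batf3 vector Hk2 fell by 0.54 on the log2 scale in non-stimulated cells (SE 0.050, edgeR adjusted p = 5.23e-17) and by 0.22 in stimulated cells (SE 0.041, edgeR adjusted p = 3.38e-07).

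Hk1, the constitutive isozyme (ENSMUSG00000037012, chromosome 10, 62268855 to 62379908), showed the opposite response to stimulation. In Batf3 stimulated cells it was at 58.1, 58.9 and 63.2 CPM, against 176, 174 and 169.7 CPM in Batf3 non-stimulated cells. It was at 58.4, 56.6 and 57.0 CPM in control stimulated cells, against 186, 190.2 and 185 CPM in control non-stimulated cells. Every stimulated library lay far below every non-stimulated one. The log2 change with stimulation was -1.53 ± 0.047 in Batf3 cells (edgeR adjusted p = 4.78e-42) and -1.70 ± 0.048 in control cells (edgeR adjusted p = 2.02e-44). The vector effect on Hk1 was small: -0.11 ± 0.040 in non-stimulated cells (edgeR adjusted p = 0.00873), and 0.07 ± 0.054 in stimulated cells, where the libraries overlapped and the adjusted p was 0.305. The non-stimulated call was lost when any control stimulated library, replicate 3 of Batf3 non-stimulated cells or replicate 1 or 2 of Batf3 stimulated cells was left out (log2 changes -0.10 to -0.08). It was also lost with library sizes alone and without a filter.

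Per kilobase of exon, Hk2 made up 81.2% ± 0.52 of Hk1 plus Hk2 in Batf3 stimulated cells and 84.1% ± 0.57 in control stimulated cells (SD, n = 3 each). It made up 32.0% ± 0.68 in Batf3 non-stimulated cells and 38.8% ± 0.32 in control non-stimulated cells. The share was thus lower with Batf3 than with the control vector in each culture, by more than the spread of the libraries. The sum of both hexokinases was also lower with Batf3, at 37.4 ± 0.76 CPM per kilobase in Batf3 stimulated cells and 42.2 ± 0.97 in control stimulated cells. It was 29.9 ± 0.28 in Batf3 non-stimulated cells and 35.8 ± 0.65 in control non-stimulated cells. With the length of the principal transcript in place of the union of exons, the sums were 48.5 ± 1.17 and 53.3 ± 0.98 in Batf3 and control stimulated cells, and 55.3 ± 0.70 and 63.6 ± 1.08 in Batf3 and control non-stimulated cells. The order of the vectors held for either length, whereas the order of the cultures turned with it.

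**Figure D2:**
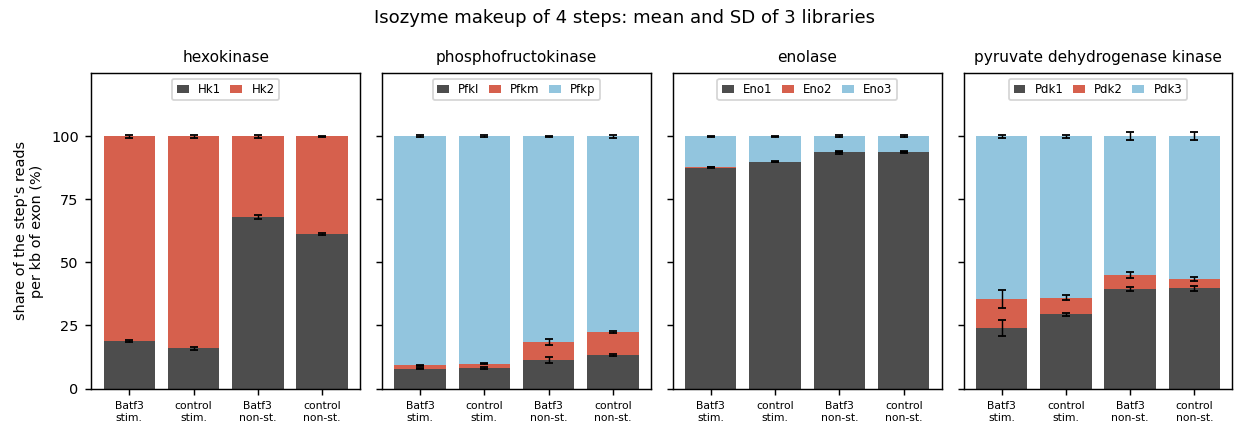
Share of each isozyme in the summed counts per kilobase of exon (y axis, percent) for 4 steps with several isozymes, in Batf3 stimulated, control stimulated, Batf3 non-stimulated and control non-stimulated cells; stacked bars are means and error bars SDs of 3 libraries. Hk2 makes up 81.2% and 84.1% of the hexokinases in Batf3 and control stimulated cells and 32.0% and 38.8% in Batf3 and control non-stimulated cells.

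Phosphofructokinase commits sugar phosphate to glycolysis, and its platelet-type isozyme Pfkp carried most of the transcripts. Pfkp (chromosome 13, 6579768 to 6648777) was at 721, 722 and 742 CPM in Batf3 stimulated cells, against 357, 355 and 344 CPM in Batf3 non-stimulated cells. In control cells it was at 678, 694 and 697 CPM when stimulated, against 358, 345 and 354 CPM when non-stimulated. The log2 change with stimulation was 1.05 ± 0.035 in Batf3 cells (edgeR adjusted p = 3.52e-43) and 0.97 ± 0.035 in control cells (edgeR adjusted p = 3.67e-41). The vector effect in non-stimulated cells was 0.00 ± 0.036 (adjusted p = 0.975), with overlapping libraries, and became 0.07 with library sizes alone. In stimulated cells it was 0.08 ± 0.034 (edgeR adjusted p = 0.0132), a call that DESeq2 and the fit without a filter did not make. This call was also lost without replicate 1 or 2 of control stimulated cells or replicate 3 of Batf3 stimulated cells (log2 changes 0.06 to 0.07).

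The muscle isozyme Pfkm moved the other way with stimulation. It was at 2.75, 2.82 and 2.07 CPM in Batf3 stimulated cells, against 6.25, 8.72 and 7.82 CPM in Batf3 non-stimulated cells. In control cells it was at 3.65, 3.12 and 2.67 CPM when stimulated, against 10.3, 10.8 and 10.2 CPM when non-stimulated. Its log2 changes with stimulation were -1.57 ± 0.18 in Batf3 cells (edgeR adjusted p = 7.96e-13) and -1.73 ± 0.16 in control cells (edgeR adjusted p = 9.21e-16). Per kilobase, Pfkp made up 90.8% and 90.1% of the phosphofructokinases in Batf3 and control stimulated cells, and 81.6% and 77.5% in Batf3 and control non-stimulated cells. The liver isozyme Pfkl rose with stimulation in Batf3 cells (0.37 ± 0.072, edgeR adjusted p = 3.4e-06) and was not called in control cells (0.06 ± 0.070, adjusted p = 0.402). Pfkfb3, which makes the main allosteric activator of phosphofructokinase, was at 74.5, 76.0 and 71.0 CPM in Batf3 stimulated cells, against 33.3, 33.1 and 35.1 CPM in Batf3 non-stimulated cells. Its log2 changes with stimulation were 1.12 ± 0.058 in Batf3 cells (edgeR adjusted p = 2.37e-28) and 0.83 ± 0.057 in control cells (edgeR adjusted p = 3.15e-22). Its relative Pfkfb4 stayed between 0.959 and 3.11 CPM in all libraries and fell with stimulation (-0.88 ± 0.30 in Batf3 cells and -0.997 ± 0.27 in control cells, edgeR adjusted p = 0.00427 and 0.000545).

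Among the other genes of upper glycolysis, Aldoa rose and Gpi1 and Aldoc fell with stimulation. Aldoa, the main aldolase, was at 513, 516 and 538 CPM in Batf3 stimulated cells, against 329, 315 and 312 CPM in Batf3 non-stimulated cells. It was at 572, 602 and 611 CPM in control stimulated cells, against 423.5, 424.5 and 426 CPM in control non-stimulated cells. Batf3 libraries lay below control libraries in both cultures: Aldoa fell by 0.41 on the log2 scale with the vector in non-stimulated cells (SE 0.036, edgeR adjusted p = 2.22e-19) and by 0.19 in stimulated cells (SE 0.035, edgeR adjusted p = 9.46e-08). The other Aldoa row, a neighbouring gene model at chromosome 7, 126800790 to 126809108, was at no more than 1.03 CPM in any library and fell with stimulation at that low level (-2.53 ± 0.72 in Batf3 cells and -1.90 ± 0.69 in control cells, edgeR adjusted p = 9.16e-05 and 0.00359). Gpi1, which isomerises glucose phosphate, had log2 changes of -0.37 ± 0.036 with stimulation in Batf3 cells and -0.49 ± 0.036 in control cells (edgeR adjusted p = 5.14e-19 and 2.14e-24). Aldoc, the brain-type aldolase, had -1.58 ± 0.12 and -1.63 ± 0.11 (edgeR adjusted p = 4.14e-20 and 2.32e-21). Of the 10 rows of upper glycolysis, 7 fell and 0 rose with Batf3 in non-stimulated cells, and Pfkp, Aldoc (-0.20 ± 0.086, adjusted p = 0.0545) and the low Aldoa row were not called. In that contrast 72.2% of all member rows fell, and of all tested genes 23% fell and 16.3% rose. Aldoc was called without replicate 1 of Batf3 non-stimulated cells or replicate 3 of Batf3 stimulated cells (-0.29 and -0.21).

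Tpi1, which interconverts the triose phosphates, was called in opposite directions with stimulation in the 2 vectors. It was at 78.2, 84.6 and 83.9 CPM in Batf3 stimulated cells, against 69.6, 70.4 and 74.0 CPM in Batf3 non-stimulated cells. It was at 77.0, 77.1 and 78.9 CPM in control stimulated cells, against 87.6, 87.9 and 89.5 CPM in control non-stimulated cells. The 4 groups thus differed chiefly through the low Batf3 non-stimulated libraries and the high control non-stimulated libraries. The log2 changes were 0.21 ± 0.049 in Batf3 cells (edgeR adjusted p = 2.97e-05), which became -0.01 with library sizes alone, and -0.19 ± 0.049 in control cells (edgeR adjusted p = 0.000118).

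**Figure D3:**
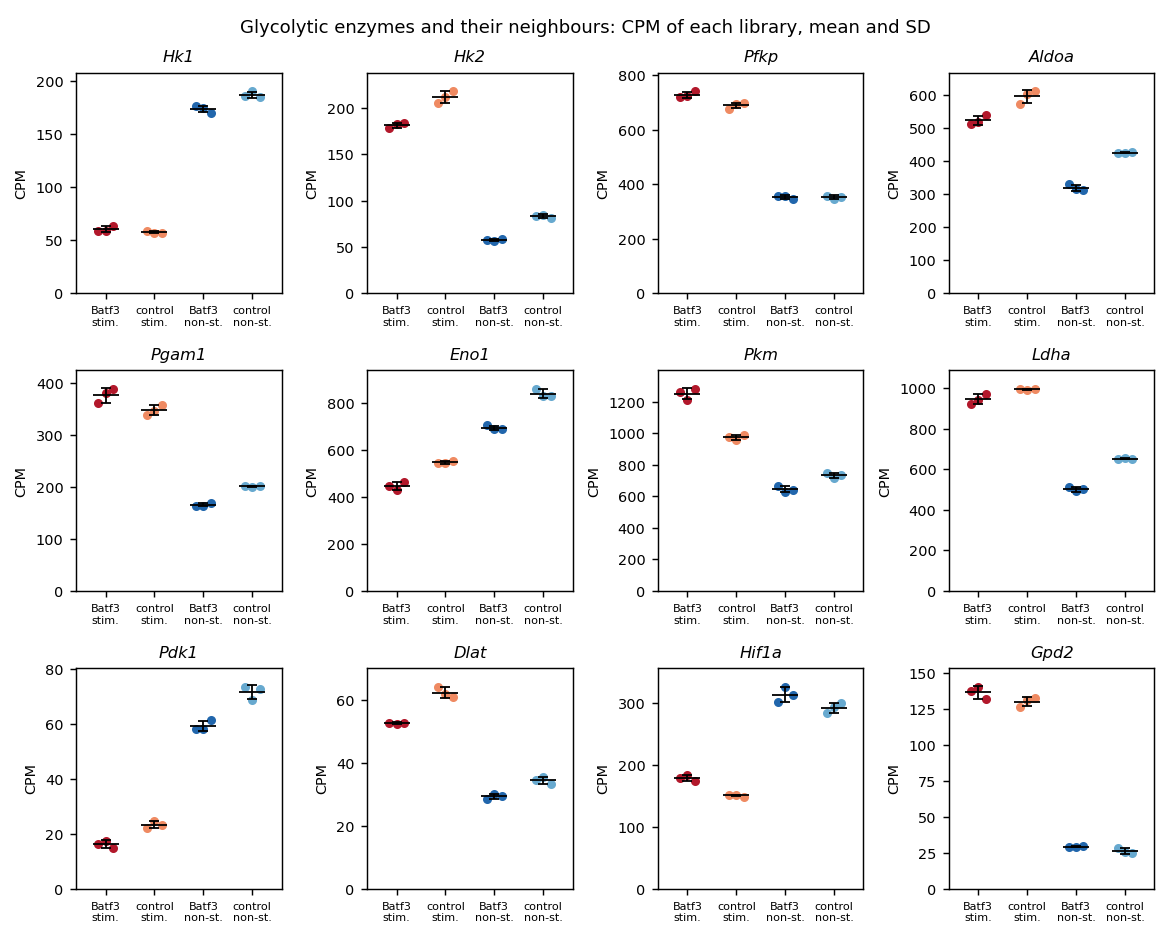
CPM (y axis of each panel, starting at 0) of glycolytic genes and of Pdk1, Dlat, Hif1a and Gpd2 in every library of Batf3 stimulated, control stimulated, Batf3 non-stimulated and control non-stimulated cells; points are libraries and bars are the mean ± SD of 3. Hk2, Pfkp, Pgam1, Pkm and Ldha are higher in stimulated cells, Hk1 and Eno1 are lower, and Pkm is highest in the Batf3 stimulated libraries at 1261, 1212 and 1282 CPM.

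In lower glycolysis, Pgam1 and Pkm rose and Eno1 fell with stimulation. Pkm, the pyruvate kinase that makes pyruvate (ENSMUSG00000032294, chromosome 9, 59656368 to 59679375), was at 1261, 1212 and 1282 CPM in Batf3 stimulated cells, against 978, 957 and 987 CPM in control stimulated cells. It was at 662, 627 and 642 CPM in Batf3 non-stimulated cells, against 751, 717 and 732 CPM in control non-stimulated cells. Batf3 libraries thus lay above the controls after stimulation and below them without it, with no overlap in either culture. With the vector, the log2 change was 0.36 ± 0.033 in stimulated cells (edgeR adjusted p = 5.06e-19) and -0.19 ± 0.034 in non-stimulated cells (edgeR adjusted p = 8.6e-09). Counts are per gene and do not separate the M1 and M2 isoforms of pyruvate kinase.

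Pgam1, which moves the phosphate of phosphoglycerate, was likewise higher in the Batf3 libraries of stimulated cells and lower in those of non-stimulated cells. It was at 361, 382 and 389.7 CPM in Batf3 stimulated cells, against 339.7, 347 and 359 CPM in control stimulated cells. It was at 164, 164 and 169 CPM in Batf3 non-stimulated cells, against 203, 201 and 202 CPM in control non-stimulated cells. The vector contrast gave 0.12 ± 0.037 in stimulated cells (edgeR adjusted p = 0.00188) and -0.28 ± 0.039 in non-stimulated cells (edgeR adjusted p = 4.86e-11). Pkm and Pgam1 were the members called in opposite directions in the vector contrasts, 2 of 36 rows, against a background of 2.31%.

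Eno1, the main enolase, fell with the Batf3 vector in both cultures, as did Hk2, Aldoa, Pgk1 and Ldha among the genes of glycolysis. It was at 444, 428 and 461 CPM in Batf3 stimulated cells, against 543, 543 and 552 CPM in control stimulated cells. It was at 704, 688 and 690.3 CPM in Batf3 non-stimulated cells, against 859, 829 and 829 CPM in control non-stimulated cells. The vector contrast gave -0.30 ± 0.035 in stimulated cells (edgeR adjusted p = 1.66e-14) and -0.27 ± 0.034 in non-stimulated cells (edgeR adjusted p = 6.47e-14). Its log2 change with stimulation was -0.64 ± 0.035 in Batf3 cells and -0.62 ± 0.034 in control cells (edgeR adjusted p = 1.08e-31 and 4.93e-31). Eno3, the muscle enolase, lay between 14.3 and 20.7 CPM, and its call with the vector in non-stimulated cells (-0.23 ± 0.088, edgeR adjusted p = 0.0235) was lost in 7 of the 12 fits without 1 library. Those 7 left out any control stimulated library, replicate 3 of control non-stimulated cells, replicate 1 or 3 of Batf3 non-stimulated cells or replicate 2 of Batf3 stimulated cells. The Eno3 call was also lost with library sizes alone, with DESeq2, without a filter and when only the groups compared were fitted. Eno2, the neuronal enolase, was at no more than 1.49 CPM, and at these low counts rose with stimulation (log2 change 1.80 ± 0.55 in Batf3 cells and 2.31 ± 0.66 in control cells, edgeR adjusted p = 0.000995 and 0.000236).

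Gapdh and Pgk1, which catalyse the oxidising step of glycolysis and its earliest ATP-yielding step, come after the triose phosphates. Gapdh was at 484, 483 and 501 CPM in Batf3 stimulated cells, against 504, 488 and 492 CPM in Batf3 non-stimulated cells. In control cells it was at 499.6, 499.3 and 510.1 CPM when stimulated, against 590.1, 599.5 and 579 CPM when non-stimulated. The highest values were thus those of control non-stimulated cells. Gapdh was not called with stimulation in Batf3 cells (-0.02 ± 0.035, adjusted p = 0.564, but called at -0.23 with library sizes alone) and fell in control cells (-0.23 ± 0.035, edgeR adjusted p = 4.76e-12). With Batf3 it fell in non-stimulated cells (-0.25 ± 0.034, edgeR adjusted p = 1.18e-12), so this gene, often used to normalise others, was not level across the groups. Pgk1 was at 438, 426 and 429 CPM in Batf3 non-stimulated cells, against 552, 541 and 526 CPM in control non-stimulated cells (log2 change -0.32 ± 0.035, edgeR adjusted p = 8.14e-16). In stimulated cells the contrast was -0.10 ± 0.035 (edgeR adjusted p = 0.00329). With stimulation Pgk1 rose in Batf3 cells (0.23 ± 0.035, edgeR adjusted p = 1.23e-11), a call lost with library sizes alone, and was not called in control cells (0.01 ± 0.035, adjusted p = 0.795), where library sizes alone gave -0.18.

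Ldha, the lactate dehydrogenase subunit that favours lactate formation (chromosome 7, 46841475 to 46855627), rose with stimulation in both vectors. It was at 923, 945 and 973 CPM in Batf3 stimulated cells, against 515, 491 and 502 CPM in Batf3 non-stimulated cells. It was at 996, 992 and 998 CPM in control stimulated cells, against 652, 658 and 652 CPM in control non-stimulated cells. The vectors were separate in both cultures, narrowly in stimulated cells and widely in non-stimulated cells. The log2 changes with stimulation were 0.91 ± 0.034 in Batf3 cells (edgeR adjusted p = 4.13e-41) and 0.61 ± 0.034 in control cells (edgeR adjusted p = 9.08e-32). The vector contrast was -0.38 ± 0.034 in non-stimulated cells (edgeR adjusted p = 4.82e-20). In stimulated cells it was -0.07 ± 0.034 (edgeR adjusted p = 0.0196), and this call was lost with library sizes alone and when replicate 1 of the Batf3 stimulated libraries was left out (-0.06, adjusted p = 0.0921). Ldhb, the other main subunit, was between 0.223 and 0.796 CPM.

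In TPM, which divides counts by exon length, Pgk1 ranked 1st among the members in non-stimulated cells, at 428 TPM in Batf3 cells and 482 TPM in control cells. Ldha ranked 2nd there, at 339 and 396 TPM, and ranked 1st in stimulated cells, at 504 TPM in Batf3 cells and 495 TPM in control cells.

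At the entry of pyruvate into mitochondria, the member genes of the pyruvate dehydrogenase complex rose with stimulation. Of the 3 member kinases that inhibit the complex, 2 fell. Another kinase, Pdk4, is not a member and was counted with the genes outside the list below. All 3 measured members of the complex (Pdha1 and Pdhb of the E1 component, Dlat of E2) rose in both vectors. Of all tested genes, 41.2% rose and 41.4% fell in Batf3 cells, and 39.6% rose and 40.7% fell in control cells. Dlat was at 52.7, 52.4 and 52.7 CPM in Batf3 stimulated cells, against 28.4, 30.1 and 29.4 CPM in Batf3 non-stimulated cells. It was at 64.2, 61.8 and 60.8 CPM in control stimulated cells, against 34.5, 35.5 and 33.3 CPM in control non-stimulated cells. The log2 change was 0.85 ± 0.063 in Batf3 cells and 0.85 ± 0.060 in control cells (edgeR adjusted p = 4.48e-21 and 4.8e-22), and the Batf3 libraries lay below the controls in each culture. Pdha1 had 0.70 ± 0.049 and 0.61 ± 0.048 with stimulation in Batf3 and control cells (edgeR adjusted p = 9.91e-23 and 3.61e-20). Pdhb had 0.22 ± 0.051 and 0.24 ± 0.051 (edgeR adjusted p = 1.23e-05 and 3.21e-06), calls that library sizes alone did not make.

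Of the kinases, Pdk1 was at 16.4, 17.5 and 14.9 CPM in Batf3 stimulated cells, against 22.0, 24.7 and 23.2 CPM in control stimulated cells. It was at 58.4, 58.3 and 61.4 CPM in Batf3 non-stimulated cells, against 73.7, 69.0 and 72.8 CPM in control non-stimulated cells. The Batf3 libraries were the lower ones in both cultures. Stimulation gave -1.87 ± 0.073 in Batf3 cells and -1.62 ± 0.066 in control cells (edgeR adjusted p = 3.1e-35 and 6.67e-34). The vector gave -0.52 ± 0.083 in stimulated cells and -0.28 ± 0.053 in non-stimulated cells (edgeR adjusted p = 1.82e-07 and 7.07e-06). Pdk3 fell with stimulation by 0.91 on the log2 scale in Batf3 cells and by 1.02 in control cells (edgeR adjusted p = 1.81e-15 and 2.34e-18). Pdk2 stayed between 1.91 and 4.50 CPM and was not called in any contrast, although its vector contrast in stimulated cells (0.60 ± 0.24) had an adjusted p of 0.0503 and was called without replicate 1 of Batf3 non-stimulated or of Batf3 stimulated cells. Its contrast in non-stimulated cells (0.44, adjusted p = 0.0943) was called without replicate 1 of Batf3 non-stimulated cells (0.59, edgeR adjusted p = 0.0349). Both were called with library sizes alone (0.65 and 0.52, edgeR adjusted p = 0.0339 and 0.0483). Per kilobase the 3 member kinases summed to 8.79 ± 0.87 CPM in Batf3 stimulated cells and 10.2 ± 0.47 in control stimulated cells (SD, n = 3 each). They summed to 19.4 ± 0.23 in Batf3 non-stimulated cells and 23.2 ± 1.26 in control non-stimulated cells.

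In the pentose phosphate pathway, all 7 genes fell with the Batf3 vector in non-stimulated cells, where 72.2% of the member rows and 23% of all tested genes fell. In the oxidative arm, Pgd, the NADPH-making phosphogluconate dehydrogenase (ENSMUSG00000028961, chromosome 4, 149149991 to 149166771), had the largest called fall of all members in that contrast. It was at 113, 109.8 and 118 CPM in Batf3 non-stimulated cells, against 174, 171 and 171 CPM in control non-stimulated cells. In stimulated cells it was at 115, 116 and 115 CPM with Batf3, against 124, 127 and 122 CPM with the control vector. Control non-stimulated cells thus stood alone at the high end, and the Batf3 libraries hardly differed between cultures. The vector contrast was -0.60 ± 0.042 in non-stimulated cells (edgeR adjusted p = 5.06e-22). It was -0.11 ± 0.045 in stimulated cells (edgeR adjusted p = 0.0245), lost with library sizes alone and without replicate 2 of control stimulated cells (-0.10, adjusted p = 0.0917). With stimulation Pgd fell in control cells (-0.47 ± 0.043, edgeR adjusted p = 2.36e-18). It was not called in Batf3 cells (0.03 ± 0.044, adjusted p = 0.525, and -0.19 with library sizes alone).

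G6pdx, the entry enzyme of the pathway, was at 38.1, 35.9 and 32.3 CPM in Batf3 non-stimulated cells, against 40.5, 45.2 and 40.9 CPM in control non-stimulated cells (log2 change -0.25 ± 0.063, edgeR adjusted p = 0.000907). In stimulated cells it was not called with the vector (-0.14 ± 0.066, adjusted p = 0.105). It became called without replicate 3 of Batf3 stimulated cells (-0.20, edgeR adjusted p = 0.0218) and in the fit without a filter on low counts. G6pdx was not called with stimulation in either vector, at 0.07 ± 0.066 in Batf3 cells, where library sizes alone gave -0.15, and -0.04 ± 0.064 in control cells. Pgls, the lactonase between the dehydrogenases, was lower with Batf3 in both cultures. It was at 38.9, 37.5 and 36.1 CPM in Batf3 stimulated cells, against 50.02, 49.6 and 45.9 CPM in control stimulated cells. It was at 53.0, 50.4 and 49.9 CPM in Batf3 non-stimulated cells, against 61.6, 61.1 and 59.9 CPM in control non-stimulated cells. The vector gave -0.37 ± 0.062 and -0.25 ± 0.054 in stimulated and non-stimulated cells (edgeR adjusted p = 2.75e-07 and 3.76e-05), and the vectors did not overlap in either culture.

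In the non-oxidative arm, the transferases Tkt and Taldo1, which exchange carbon units between sugars, responded to stimulation in opposite directions. Tkt was at 459.8, 459.7 and 459.5 CPM in Batf3 stimulated cells, against 539, 529.6 and 537 CPM in control stimulated cells. It was at 249.6, 250.3 and 240.4 CPM in Batf3 non-stimulated cells, against 346, 343 and 343 CPM in control non-stimulated cells. It rose with stimulation by 0.90 ± 0.036 in Batf3 cells and 0.64 ± 0.035 in control cells on the log2 scale (edgeR adjusted p = 1.37e-38 and 3.28e-31). It fell with the Batf3 vector in both cultures, with -0.48 ± 0.036 in non-stimulated cells and -0.22 ± 0.035 in stimulated cells (edgeR adjusted p = 8.38e-23 and 3.85e-10).

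Taldo1 was at 52.0, 52.5 and 52.7 CPM in Batf3 stimulated cells, against 93.3, 88.8 and 92.4 CPM in Batf3 non-stimulated cells. It was at 59.2, 58.4 and 60.5 CPM in control stimulated cells, against 113, 106 and 114 CPM in control non-stimulated cells. Its log2 changes with stimulation were -0.80 ± 0.052 in Batf3 cells and -0.90 ± 0.050 in control cells (edgeR adjusted p = 1.89e-24 and 1.31e-27). Rpia, the isomerase that yields ribose phosphate, was at 64.6, 64.9 and 64.5 CPM in Batf3 stimulated cells, against 28.4, 31.5 and 31.2 CPM in Batf3 non-stimulated cells. In control cells it was at 66.7, 64.8 and 66.3 CPM when stimulated, against 39.1, 39.2 and 37.8 CPM when non-stimulated. The vectors overlapped after stimulation and were separate without it, where the contrast was -0.35 ± 0.063 (edgeR adjusted p = 9.54e-07). Rpe, the epimerase beside it, fell with Batf3 in non-stimulated cells (-0.45 ± 0.066, edgeR adjusted p = 4.62e-08) and was not called in stimulated cells (-0.11 ± 0.066, adjusted p = 0.243).

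**Figure D4:**
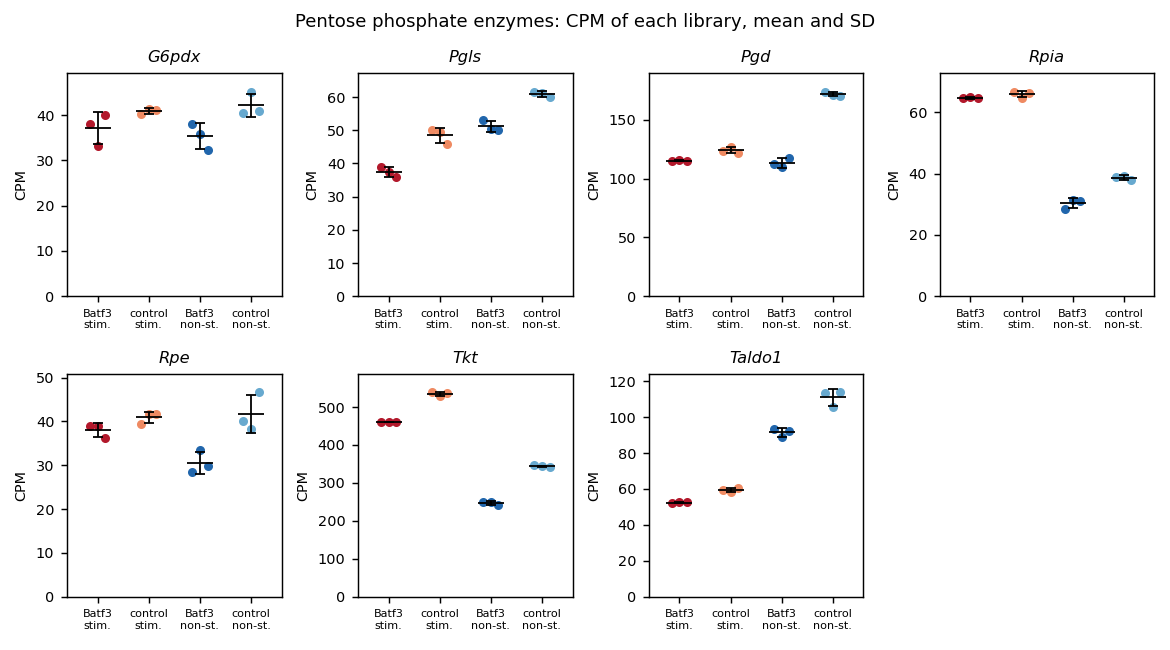
CPM (y axis of each panel, starting at 0) of the 7 pentose phosphate genes in every library of Batf3 stimulated, control stimulated, Batf3 non-stimulated and control non-stimulated cells; points are libraries and bars are the mean ± SD of 3. Pgd stands at 171 to 174 CPM in control non-stimulated cells and between 109.8 and 127 CPM in the other 3 groups.

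Hif1a, the oxygen-regulated subunit of HIF-1, and Gpd2, the mitochondrial enzyme of the glycerol phosphate shuttle, were the members that rose with Batf3 in non-stimulated cells. Hif1a was at 179, 183 and 174 CPM in Batf3 stimulated cells, against 152, 151 and 149 CPM in control stimulated cells. It was at 301.5, 326 and 312 CPM in Batf3 non-stimulated cells, against 284, 293 and 299 CPM in control non-stimulated cells. The gap between vectors was wide in stimulated cells and narrow in non-stimulated cells. The vector gave 0.25 ± 0.041 in stimulated cells (edgeR adjusted p = 1.85e-08) and 0.10 ± 0.037 in non-stimulated cells (edgeR adjusted p = 0.00614). The second of these was lost without replicate 1 of control non-stimulated cells or replicate 2 of Batf3 non-stimulated cells (0.08 and 0.07). Hif1a transcripts fell with stimulation by 0.81 on the log2 scale in Batf3 cells and by 0.96 in control cells (edgeR adjusted p = 3.39e-32 and 1.75e-35).

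Gpd2 had the largest rise with stimulation among the called members in Batf3 cells. It was at 138, 141 and 132 CPM in Batf3 stimulated cells, against 28.9, 29.0 and 29.7 CPM in Batf3 non-stimulated cells. It was at 127, 131 and 133 CPM in control stimulated cells, against 28.6, 25.2 and 24.6 CPM in control non-stimulated cells. The log2 changes were 2.23 ± 0.056 in Batf3 cells and 2.32 ± 0.058 in control cells (edgeR adjusted p = 3.43e-46 and 2.68e-46). Its vector contrast in non-stimulated cells, 0.16 ± 0.067 (edgeR adjusted p = 0.0329), was not called by DESeq2 and was lost without any 1 of the Batf3 non-stimulated libraries or without replicate 2 or 3 of control non-stimulated cells (0.11 to 0.17).

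The vector by stimulation interaction subtracts the log2 effect of Batf3 without stimulation from that with stimulation, and so tests whether the vector's effect differed between cultures. It was positive for 17 members and negative for 0, against 14.6% and 6.08% of all tested genes, and the median was 0.15 for the members beside 0.05 for all genes. At an unadjusted p under 0.05, 19 were positive and 1, Pdk1, was negative (-0.24 ± 0.098, edgeR adjusted p = 0.0532). DESeq2 also called 0 negative, and library sizes alone, median-ratio factors and the fit without a filter called 1. The positive interactions of Hk1, Gpi1, Pfkl and Hif1a were not called by DESeq2 or by the fit without a filter. Library sizes alone lost the calls of Hk1, Gpi1 and Hif1a, and median-ratio factors lost that of Gpi1. Pkm had the largest value among the called members, 0.55 ± 0.048 (edgeR adjusted p = 1.68e-19). Pgd had 0.49 ± 0.061, Pgam1 0.40 ± 0.054 and Tpi1 0.39 ± 0.069 (edgeR adjusted p = 1.59e-11, 7.01e-11 and 1.07e-06). The interaction was not called for Eno1 (-0.02 ± 0.049), Taldo1 (0.10 ± 0.072), Pgls (-0.12 ± 0.082), Dlat (-0.01 ± 0.087) or Gpd2 (-0.09 ± 0.080). The calls of Gpi1, Hk1, Pfkl and Hif1a, at adjusted p between 0.0137 and 0.0286, were lost in 10, 8, 6 and 6 of the 12 fits that left out 1 library. The Gpi1 call held only without replicate 3 of control non-stimulated or of Batf3 non-stimulated cells. The Hk1 call held only without replicate 1 or 3 of control non-stimulated cells or replicate 1 or 2 of Batf3 non-stimulated cells. The Pfkl call was lost without replicate 1 or 3 of control stimulated, 2 or 3 of Batf3 non-stimulated or 1 or 2 of Batf3 stimulated cells. The Hif1a call was lost without any control stimulated library, replicate 1 of Batf3 non-stimulated cells or replicate 1 or 2 of Batf3 stimulated cells. The Pfkfb3 call was lost without replicate 3 of control stimulated cells (0.22, adjusted p = 0.0519). Pdk1 became called without replicate 1 of control non-stimulated cells, 1 or 3 of control stimulated cells, or 1 or 2 of Batf3 stimulated cells (-0.34 to -0.26).

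Genes of the same pathways outside the list were counted as well. Of all tested genes, 23% fell and 16.3% rose with Batf3 in non-stimulated cells, and 14.6% fell and 14.8% rose in stimulated cells. With stimulation, 41.2% rose and 41.4% fell in Batf3 cells, and 39.6% rose and 40.7% fell in control cells. These shares are the background for all the lists that follow, and no list was tested against them. Of 9 tested genes for glucose and lactate transport and pyruvate entry, 3 fell and 0 rose with Batf3 in non-stimulated cells, and 5 fell and 1 rose in stimulated cells. With stimulation, 6 rose and 3 fell in each vector. Slc16a1, a lactate and pyruvate transporter, rose with stimulation by 2.10 ± 0.047 in Batf3 cells and 1.75 ± 0.044 in control cells (log2 change), and fell with Batf3 in non-stimulated cells (-0.55 ± 0.051). Slc2a6, a member of the glucose transporter family, fell with Batf3 in both cultures, with -1.28 ± 0.098 in stimulated cells and -0.82 ± 0.12 in non-stimulated cells. Slc2a1, the main glucose transporter of activated T cells, fell with Batf3 by 0.23 and 0.20 on the log2 scale in stimulated and non-stimulated cells. Slc2a3, another glucose transporter, rose with Batf3 in stimulated cells (0.41 ± 0.046).

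Of 10 tested regulators of glycolytic transcription and flux, 3 fell and 2 rose with Batf3 in non-stimulated cells, and 4 fell and 1 rose in stimulated cells. Myc averaged 296 ± 14.6 CPM in Batf3 non-stimulated cells and 411 ± 8.75 CPM in control non-stimulated cells (SD, n = 3 each), a log2 change of -0.48 ± 0.036 (edgeR adjusted p = 1.87e-22). Its partner Max had -0.45 ± 0.045 there (edgeR adjusted p = 1.15e-14). Myc rose with stimulation by 2.02 ± 0.035 in Batf3 cells and 1.63 ± 0.034 in control cells, with an interaction of 0.40 ± 0.049 (edgeR adjusted p = 4.6e-13). Txnip, an inhibitor of glucose uptake, fell with stimulation by 3.41 in Batf3 cells and 3.12 in control cells on the log2 scale. Of 7 tested genes of the HIF pathway, 3 rose and 0 fell with Batf3 in non-stimulated cells, and Egln3, a prolyl hydroxylase that marks HIF subunits for degradation, rose in both cultures (0.57 ± 0.069 in stimulated and 0.33 ± 0.072 in non-stimulated cells).

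Of 13 HIF targets outside glycolysis, 6 rose and 6 fell with stimulation in each vector, and with Batf3 3 rose and 3 fell in non-stimulated cells and 2 rose and 4 fell in stimulated cells. Vegfa and Ndrg1 rose with stimulation by over 3 on the log2 scale in each vector, at 3.20 and 3.21 in Batf3 cells and 3.17 and 3.87 in control cells. Bnip3 and Bnip3l, mitophagy receptors, fell, at -2.15 and -3.02 in Batf3 cells and -1.90 and -2.76 in control cells. Of 7 other pentose phosphate and ribose genes tested, 6 fell and 1 rose with stimulation in each vector, the riser being Prps1, which makes the activated ribose of nucleotide synthesis (1.10 ± 0.052 in Batf3 cells and 1.05 ± 0.050 in control cells). With Batf3, 2 of these 7 fell and 0 rose in each culture. Of 6 further genes of the pyruvate dehydrogenase complex and its regulators, 3 rose and 1 fell with stimulation in Batf3 cells and 2 rose and 1 fell in control cells, with Dld, the E3 component, at 0.73 ± 0.051 and 0.84 ± 0.050. With Batf3, 2 rose and 2 fell in non-stimulated cells and 2 rose and 1 fell in stimulated cells. Of 15 tested isozymes and side-step genes, 5 rose and 9 fell with stimulation in Batf3 cells and 4 rose and 9 fell in control cells. With Batf3, 2 rose and 3 fell in non-stimulated cells and 2 rose and 4 fell in stimulated cells. A called interaction was found for 0 of them, against 14.6% positive and 6.08% negative among all tested genes.

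Several members share reads with near-identical copies elsewhere in the genome, and how the authors' counting treated such reads is not given in the sources used here. Copies were sought with blastn at 90% identity or more, and 14 members had at least 1. For Eno1, 7 copies held 132982 counts over all libraries, more than the 110001 of Eno1 itself, and Eno1b alone (99.5% identical) held 68319. For Pgk1, 4 copies held 108167 counts, against 86471 for Pgk1 itself. Of these, Pgk1-rs7 and Gm5537, each 100% identical to Pgk1 where aligned, had nearly equal levels. They averaged 258.075 and 258.075 CPM in Batf3 non-stimulated cells, and 301.501 and 301.378 CPM in Batf3 stimulated cells. Summed copy counts may thus hold the same reads more than once, and reads of the member too, which was not tested. Gapdh had 176 copies with 33467 counts against its own 89487, Pgam1 had 3 with 20402 against 45919, and Pkm had 7 with 34855 against 152366. The share held by copies hardly varied between libraries, at 54.4 to 55.3% for Eno1 and 54.8 to 56.1% for Pgk1. The levels of these genes, and ranks built on them, are therefore uncertain. Their changes moved little when copies were added. Reads shared by a member and its copies would give this outcome, so it is no check on the members' changes. Of the 180 member values over the 5 contrasts, which include members without a copy, 179 kept their call. Gapdh became called with stimulation in Batf3 cells (-0.05, edgeR adjusted p = 0.0471). No value with a call turned direction. Among uncalled values, Pgk1 with stimulation in control cells went from 0.01 to -0.01, and Ldhb with Batf3 in stimulated cells from 0.14 to -0.04.

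**Figure D5:**
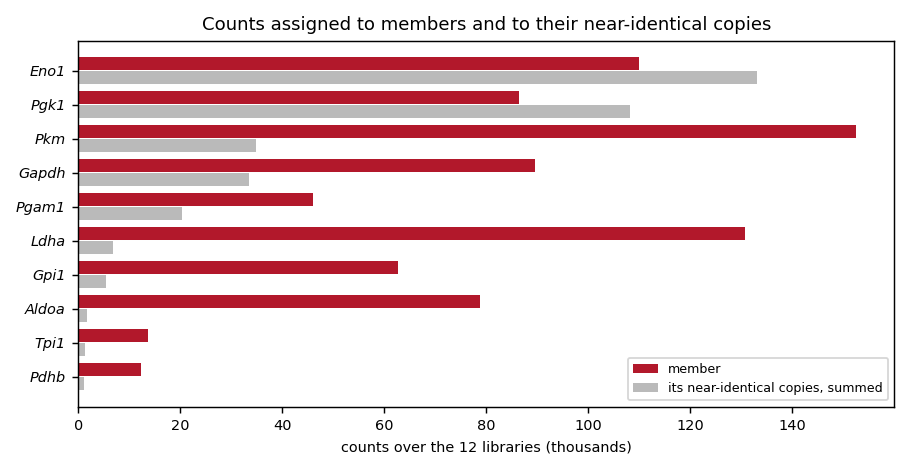
Counts over the 12 libraries (x axis, in units of 1000) assigned to members (red bars) and to their near-identical copies (grey bars), for the 10 members whose copies hold at least 1000 counts. The copies of Eno1 and Pgk1 hold more counts than the genes themselves, and those of the other 8 hold fewer. Summed copies may hold the same reads more than once.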

How the data were processed

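RNA-seq was measured in 12 libraries of mouse CD8 T cells. Per the labels' protocols, polyadenylated RNA from 100 ng of total RNA went through a stranded kit and 15 PCR cycles. The authors deposited whole-number read counts per Ensembl gene, made with STAR 2.7 and featureCounts on GRCm38, per the submitters' processing notes. Which annotation was used, whether counting used strand and how multiply aligned reads were handled is not given in the sources used here.

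Samples fell into 4 groups of 3 libraries by their labels. Tests used edgeR 4.0.16 in R 4.3.3: filterByExpr (minimum count 10), TMM factors, 4 group means with 8 residual degrees of freedom, and robust quasi-likelihood tests, two-sided. P-values were Benjamini-Hochberg adjusted over 15702 genes of each contrast, with calls made below 0.05. CPM uses TMM-scaled library sizes and no pseudocount; CPM of marker lists uses plain library sizes. A count of 3 stands for 0.191 to 0.229 CPM in 1 library, which covers counting error only, since PCR reads without molecular identifiers are not independent molecules. The fit was checked on simulated counts.

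Exon lengths and coordinates come from GENCODE M21 (GRCm38), which matched 55154 identifiers and not 181. TPM and shares per kilobase use the union of exons. Copies were sought with blastn 2.17.0 (at least 90% identity over 150 bases and 70% of the copy).

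Members, gene lists and tests were chosen with earlier results of these data known. All members were described. From each other list and contrast, up to 3 called genes in each direction with at least 1 CPM could be named. Alternatives were library sizes alone, median-ratio size factors, DESeq2 1.42.0, no filter, only the groups compared, a replicate block and leaving out each library.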

Additional observations from a re-analysis of the deposited data

Results flagged for a closer look

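For 17 members the effect of the Batf3 vector differed between cultures by a test of the difference itself (edgeR, Benjamini-Hochberg adjustment over all tested genes), against a background of 14.6% of all tested genes with a positive difference. The values below are log2 differences, stimulated minus non-stimulated.

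In upper glycolysis they were 0.39 for Tpi1, 0.32 for Hk2, 0.31 for Pfkl, 0.23 for Aldoa, 0.18 for Hk1 and 0.11 for Gpi1. Pfkfb3 had 0.29. In lower glycolysis they were 0.55 for Pkm, 0.40 for Pgam1, 0.23 for Pgk1 and 0.21 for Gapdh, and Ldha had 0.31. In the pentose phosphate pathway they were 0.49 for Pgd, 0.35 for Rpe, 0.32 for Rpia and 0.26 for Tkt. Hif1a had 0.15. For Hif1a the effect was positive in both cultures and larger in stimulated cells (0.25, against 0.10 in non-stimulated cells). Pkm and Pgam1 were called higher with Batf3 in stimulated cells and lower in non-stimulated cells. For the others called in both cultures (Hk2, Aldoa, Pgk1, Ldha, Pgd and Tkt) the effect was negative in each and smaller in stimulated cells.

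Counts also lay on rows of near-identical copies outside the member list. The 7 near-identical copies of Eno1 held 132982 counts and the 4 of Pgk1 held 108167, in each case more than the gene itself. The largest copies changed much as the members did: the vector contrast was -0.30 ± 0.037 in stimulated and -0.27 ± 0.035 in non-stimulated cells for Eno1b, and -0.34 ± 0.037 in non-stimulated cells for Pgk1-rs7 (log2 change ± SE, n = 3 libraries per group). Whether these reads came from the copies or from the genes was not tested. The sums may hold the same reads more than once, so they are not separate support for the members' changes.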

How the results depend on the processing

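Of the members' log2 changes under the alternatives, 3263 kept their call, and their direction where called. Another 85 were no longer called, 24 became called and 5 turned direction with a call in at least 1 of the fits. Directions of values that neither fit called were not compared. Median-ratio size factors, summed copies, fitting only the groups compared and DESeq2 moved few calls, and DESeq2 lost 7 of 180. Summed copies are no check on the calls, since copies may hold the same reads as the members. Scaling by library sizes alone turned 12 directions of values called in at least 1 of the fits. The log2 change of Pfkp with Batf3 in non-stimulated cells became 0.073. With stimulation in Batf3 cells, values became -0.0093 for Tpi1, -0.15 for G6pdx, -0.19 for Pgd, -0.094 for Slc2a1, -0.093 for Hif1an, -0.21 for Higd1a and -0.10 for Mlxip. With stimulation in control cells they became -0.18 for Pgk1, -0.042 for Slc2a1, -0.042 for Slc2a3 and -0.071 for Hif1an. The same scaling gave a median over all genes of -0.20 in Batf3 cells and -0.19 in control cells, and all of these stimulation values but that of Higd1a lay above it. The count of members called higher with Batf3 became 4 in non-stimulated cells (1 with DESeq2) and 7 in stimulated cells with library sizes alone, against 2 and 4. The count with a negative interaction became 1 with library sizes alone, with median-ratio factors and without a filter. Leaving out 1 library gave 0 to 2 members called higher and 24 to 27 called lower with Batf3 in non-stimulated cells, and 3 to 5 and 10 to 12 in stimulated cells. It gave 12 to 17 positive and 0 to 1 negative interactions. With stimulation the counts stayed at 19 and 12 in Batf3 cells and at 14 and 15 in control cells.

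Isozyme and count shares depend on the denominator. Without division by length, Hk2 was 75.1, 78.7, 24.8 and 30.7% of the hexokinases in Batf3 stimulated, control stimulated, Batf3 non-stimulated and control non-stimulated cells. With principal transcript lengths it was 67.8, 72.0, 18.7 and 23.7% in the same order. Pfkp was 95.5, 95.2, 91.7 and 89.7% without division, and 94.9, 94.6, 90.2 and 87.9% with principal transcript lengths. The members' share of counts was 0.7198, 0.7039, 0.6316 and 0.7136% of counts outside the members and mitochondrial genes, and 0.8809, 0.869, 0.8195 and 0.9319% with copies added. With copies added, the same reads may be counted more than once.

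The summed copies and the principal transcript lengths were chosen after seeing the data. Replicate numbers did not pair the libraries: same-numbered libraries correlated at -0.1565 to 0.0844 in their deviations from group means, and 4 of 12 libraries were closest to their own number. Under the replicate block, all 180 member values kept their call, and those with a call kept their direction. Low counts limit Eno2, Ldhb, Pfkfb4, Pdk2 and the other Aldoa row. The technical replicates give no measure of spread between mice or transductions.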
